A study of Mus musculus with 4 samples.

Results

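Foxp3-negative CD4 T cells are helper T cells of the tumour that carried no transcript of Foxp3, the transcription factor that defines regulatory T cells. They were selected from droplet-based single-cell RNA sequencing of cells of 4T1 tumours, which the study describes as sorted CD45+ leucocytes. In this method each transcript molecule is tagged with a unique molecular identifier (UMI) and counted. A cell was taken if it held at least 2 UMIs of Cd3d plus Cd3g, which encode subunits of the CD3 complex, and at least 1 UMI of Cd4, with 0 UMIs of Foxp3, of Cd8a plus Cd8b1 and of Siglech, a gene of plasmacytoid dendritic cells. The matrix has 33064 barcodes. With at least 300 genes and at most 15% mitochondrial UMIs, 32133 of them were kept as cells, and 354 of the kept cells met the rule (1.10%, 95% interval 0.990 to 1.22%). Since these measured values chose the cells, the levels of the 7 genes of the rule are not results.

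4T1 is a mouse mammary carcinoma line. Each female BALB/c mouse, 6 to 8 weeks old, received 1000000 4T1 cells in the right flank, an intravenous injection on day 7 and 3 irradiations of 5 min with 980 nm near-infrared (NIR) light at 1.0 W cm−2, daily from day 8 to day 10, and its tumour was taken on day 13. The labels give 2 samples as PBS and 1 as TIOs+NIR3, TIOs being a T-cell-inspired oncolytic particle switched on by the light, so the mice given PBS were irradiated as well. The remaining sample of the 4 was put in no group because its title and its protocol name different treatments. The barcodes carry 4 suffixes, 1 for each library, and no source used here says which sample a suffix stands for. The matrix was therefore treated as 1 pooled sample, the treatment of each library is unknown, and no comparison of TIOs+NIR3 with PBS was made.

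CD4 T cells leave the thymus as naive cells that circulate through lymphoid organs under the control of the transcription factors Tcf7 and Lef1. After activation they take on helper programmes, each with its own transcription factors and cytokines: Tbx21 and interferon gamma (Ifng) for Th1, Gata3 and the interleukins Il4, Il5 and Il13 for Th2, Il17a and Il17f for Th17, and Bcl6 with Cxcr5 and Il21 for follicular helper (Tfh) cells. CD40 ligand, encoded by Cd40lg, is the surface molecule with which helper cells license dendritic cells and B cells. In tumours, Th1 cells are known for supporting cytotoxic T cells, and Th2 cytokines for acting on macrophages and eosinophils.

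The number of Foxp3-negative CD4 T cells was 29 in library 1, 43 in library 2, 180 in library 3 and 102 in library 4. As a share of the kept cells this was 0.370% (0.248 to 0.530%), 0.499% (0.361 to 0.672%), 2.65% (2.28 to 3.06%) and 1.15% (0.937 to 1.39%). Library 3 thus stood highest and library 4 next, and libraries 1 and 2 had overlapping intervals. Kept cells were filtered by gene number and mitochondrial UMIs only, and no leucocyte gene was asked for. The shares are therefore of all kept cells and not of leucocytes. The make-up of the kept cells differed, with 454, 2071, 1975 and 1681 neutrophils in libraries 1 to 4. All intervals are exact (Clopper-Pearson for shares, Poisson for sums), at 95%, and cover counting error only, not differences between mice. The Foxp3-negative CD4 T cells together held 2610007 UMIs, at a median of 4870 UMIs and 2047.5 genes per cell. By library the median was 3231, 6080, 4459.5 and 5784.5 UMIs. Levels are given as UMIs of a gene summed over the cells, scaled to a total of 1000000 UMIs (CPM), so that 1 UMI was worth 8.00 CPM in library 1 but 2.12, 0.833 and 1.23 CPM in libraries 2 to 4. Library 1 was therefore the least precise.

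**Figure D1:**
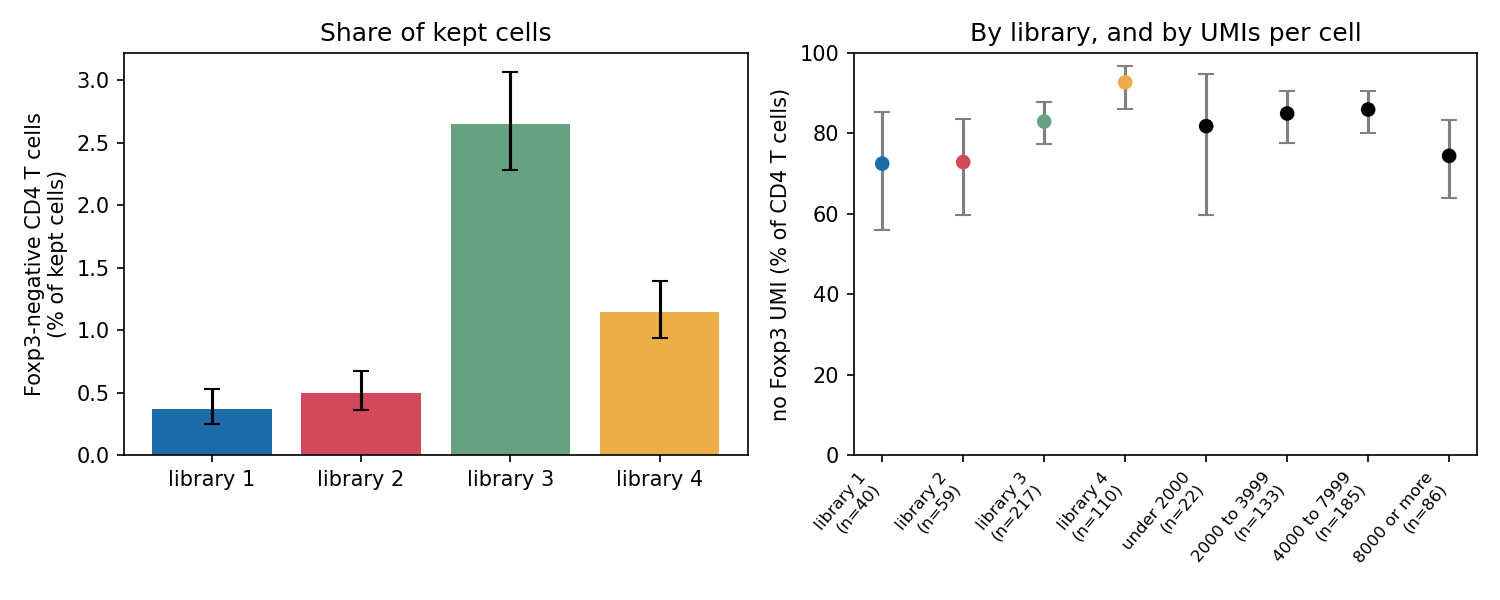
Foxp3-negative CD4 T cells as a percentage of the kept cells of each library (left, bars), and the percentage of CD4 T cells without a Foxp3 UMI by library and by UMIs per cell (right, points, n is the number of CD4 T cells). Error bars are exact 95% intervals. The left panel shows library 3 highest at 2.65%, and the right panel shows no decline of the Foxp3-negative share below 8000 UMIs, with values between 81.8% and 85.9%.

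The edges of the rule were thinly populated for CD3 and densely for Cd4. A median cell held 10 UMIs of Cd3d plus Cd3g and 2 UMIs of Cd4. Just inside the limits, 30 cells held exactly 2 UMIs of Cd3d plus Cd3g and 157 held exactly 1 UMI of Cd4. Just outside, 33 cells held 1 UMI of Cd3d plus Cd3g, 354 held no Cd4 UMI, 18 held 1 Foxp3 UMI and 54 held more. Cells with Cd8a or Cd8b1 UMIs (7) or Siglech UMIs (4) that met all other conditions were few. The barcode sequence of 2 of the 354 cells also occurred in another library, among 202 such barcodes of the matrix, and no sequence was shared by Foxp3-negative CD4 T cells of different libraries.

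Of the 426 CD4 T cells, 83.1% (79.2 to 86.5%) were Foxp3-negative. A missed Foxp3 transcript would place a regulatory T cell among them, so the share was read by depth. It was 81.8% (18 of 22 cells) under 2000 UMIs, 85.0% (113 of 133) from 2000 to under 4000, 85.9% (159 of 185) from 4000 to under 8000 and 74.4% (64 of 86) from 8000 UMIs on. The deepest cells had the lowest share, with an interval (63.9 to 83.2%) that overlapped those of the other bins. By library the share was 72.5% (56.1 to 85.4%), 72.9% (59.7 to 83.6%), 82.9% (77.3 to 87.7%) and 92.7% (86.2 to 96.8%), so that the interval of library 4 lay above those of libraries 1 and 2. Thinning each cell to 1000 UMIs before the rule left 84 CD4 T cells, of which 91.7% were Foxp3-negative.

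The name given to these cells was checked with genes that the rule did not use. Of 16 genes of the T cell receptor complex and its signalling, all were found in at least 10% of the cells and 12 in at least 50%. Of the CD3 chains in that list, Cd3e was found in 91.8% (88.4 to 94.5%) and Cd247, which encodes the zeta chain, in 41.0% at 87.4 CPM. Trac, the constant region of the receptor's alpha chain, was found in 80.2% (75.7 to 84.3%), and Trbc2 of the beta chain in 90.7%. In neutrophils, which should lack these genes and held a median of 1949 UMIs, Trac was found in 0.324%, at 0.825 CPM against 392 CPM (368 to 417) in the Foxp3-negative CD4 T cells. Cd28 and Icos, the costimulatory receptors of helper cells, were found in 86.7% and 91.2% of the cells. These markers of T cells were present in all 4 libraries, with Trac at 512, 343, 381 and 418 CPM.

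Cd40lg was the only helper marker given for this cell type that the rule left free. Its UMIs lay in 101 of the 354 cells (28.5%, 23.9 to 33.5%), namely in 20.7%, 37.2%, 22.2% and 38.2% of the cells of libraries 1 to 4. The summed level was 72.0, 57.2, 51.6 and 73.9 CPM, which is alike in the 4 libraries. The same gene stood at 2.73 CPM in 305 CD8 T cells (280 of them in library 1, median 4910 UMIs) and had 0 UMIs in 6181 neutrophils. After thinning to 1000 UMIs, the shares with a Cd40lg UMI were 5.40% of Foxp3-negative CD4 T cells, 0% of the Foxp3-positive cells, 0.330% of CD8 T cells and 2.62% of T cells without Cd4 or Cd8 UMIs. Cd40lg had 158 UMIs in all. Of the other genes of helper identity, 5 were found in more cells than Cd40lg: Cd28 at 516 CPM, Gata3 at 323, Tnfsf8, which encodes CD30 ligand, at 186, Bcl11b at 163 and Tcf7 at 132 CPM. Tox, Cd27 and Izumo1r were found in fewer, at 20.9%, 19.2% and 13.6%. Zbtb7b, which encodes the CD4-lineage factor ThPOK, was detected in 14.1% of the cells, at 23.0 CPM in them against 23.2 CPM in neutrophils.

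Markers of other cells were read next, because they bear on the levels that follow. None of 5 genes of natural killer cells (Ncr1, Klrb1c, Klra8, Klre1, Eomes) had a UMI, which allows a level of up to 1.15 CPM for each. Of 8 genes of gamma delta and innate-like T cells, 6 had a UMI, in 3.11% of the cells together, with Klrb1c and Cd163l1 at 0 and a summed level of 48.0, 2.12, 8.33 and 0 CPM in libraries 1 to 4. Tcrg-C1 led that list at 2.30 CPM. The 5 B cell genes summed to 15.7 CPM, led by Ighm, with Ms4a1 at 0, and the 3 genes of basophils and mast cells to 1.53 CPM, with Ms4a2 at 0. Cpa3 and Mcpt8, the other genes of that list, had 2 UMIs each.

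Transcripts of myeloid, stromal and tumour cells were present at levels that differed between libraries. The 5 fibroblast genes, led by Col1a2 in library 1 and by Col3a1 in the others, summed to 264, 4347, 3078 and 2227 CPM in libraries 1 to 4, and Col3a1 itself was found in 79.9% of the cells. Col3a1 stood at 146, 5780, 2031 and 2920 CPM in the neutrophils of the same libraries and at 72.0, 1556, 984 and 798 CPM in the Foxp3-negative CD4 T cells. In each library it was thus lower in the T cells than in neutrophils. The 5 neutrophil genes, led by S100a9, summed to 344, 893, 1279 and 642 CPM. The 10 macrophage and monocyte genes summed to 880, 447, 387 and 1652 CPM. The list was led in library 1 by Apoe (240 CPM), in libraries 2 and 3 by Ccr2 (199 and 245 CPM), which T cells also use, and in library 4 by Lyz2, a myeloid lysozyme (686 CPM).

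Library 1 was also set apart by tumour genes. The 5 tumour or epithelial genes, led in library 1 by Krt18 (752 CPM) and Epcam (599.9 CPM), summed to 1848 CPM in library 1 and to 110, 10.8 and 7.39 CPM in libraries 2 to 4. Genes of dendritic cells, led by Cd74 of antigen presentation, summed to 2216 and 1867 CPM in libraries 1 and 2 against 94.1 and 196 CPM in libraries 3 and 4, with Xcr1, Cd209a and Ccr9 at 0. In library 2 a single cell held 449 of the 469 Cd74 UMIs, whereas in library 1 the 168 Cd74 UMIs lay in 25 of the 29 cells. Endothelial genes summed to 51.7 CPM over all libraries, nearly all from Pecam1, which leucocytes also express. In 16 of the 354 cells (4.52%) the markers of these other cells took over 1% of the UMIs, and the median was 0.205%. Without those 16 cells Cd74 stood at 83.5 CPM instead of 287, Col3a1 at 449 instead of 986 and S100a9 at 269 instead of 560. The part of such transcripts in the levels of other genes was not tested beyond the values given without these cells.

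**Figure D2:**
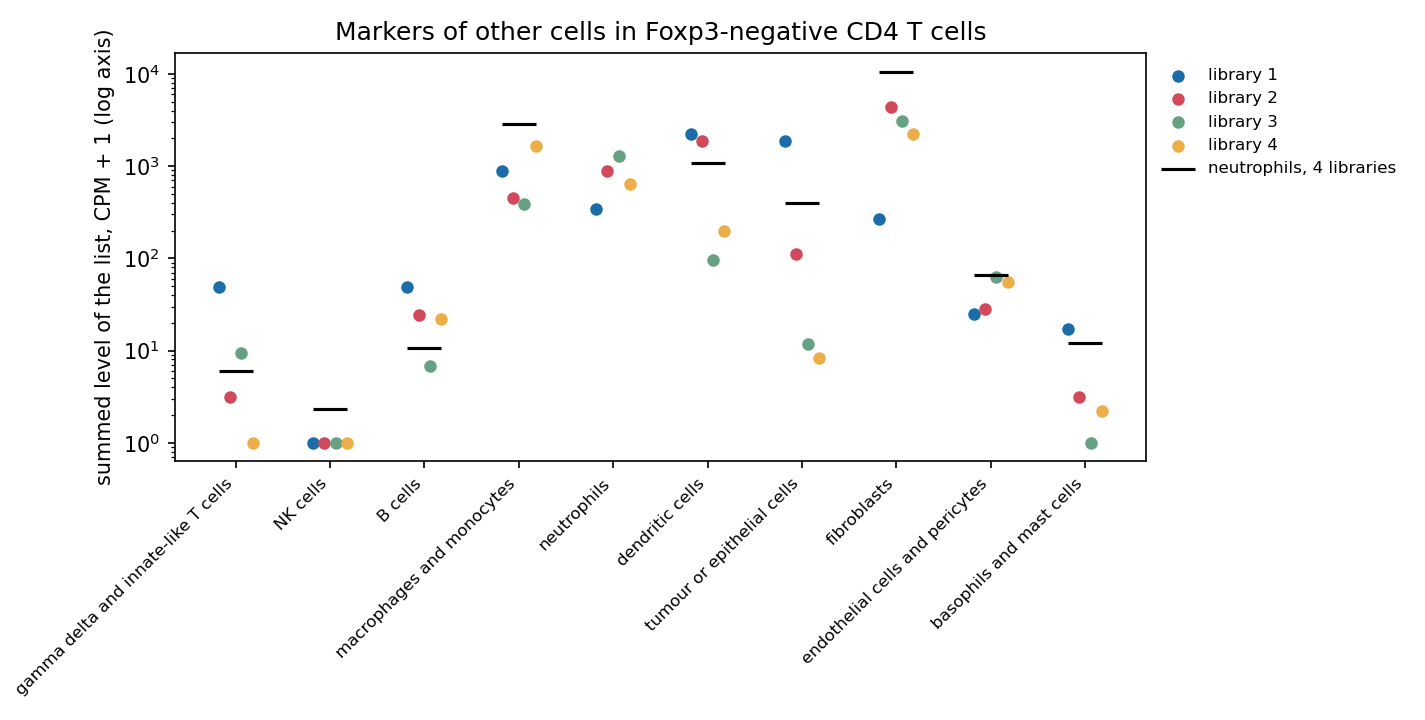
Summed level of each list of marker genes of other cells in the Foxp3-negative CD4 T cells of each library (coloured points), as CPM plus 1 on a log axis, with the level of the same list in 6181 neutrophils of the 4 libraries (black bars, not drawn for the neutrophil list). The natural killer list lies at 0 CPM in all 4 libraries, and the tumour or epithelial list is high in library 1 only, at 1848 CPM.

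The lists of the helper programmes summed to 909 CPM for Th2, 1038 for Th1, 594 for Th17 and 466 for Tfh, led over the 4 libraries together by Gata3, Bhlhe40, Rora and Maf. The Th2 genes are described first because they include Il13, the interleukin of these lists with the most UMIs. Gata3 was found in 228 of the 354 cells (64.4%, 59.2 to 69.4%), at 248, 354, 302 and 347 CPM in libraries 1 to 4. It stood at 195 CPM in Foxp3-positive CD4 T cells, 10.5 in neutrophils and 60.2 in the CD8 T cells of library 1. Il13, whose product drives alternative activation of macrophages, had 664 UMIs in 42 cells (11.9%, 8.69 to 15.7%). Its level was 176 CPM in library 1, 599 in library 2, 152 in library 3 and 218 in library 4, so that library 2 was highest and the remaining libraries were closer together. Il4 had 100 UMIs in 52 cells (14.7%, 11.2 to 18.8%), at 0, 84.7, 28.3 and 32.0 CPM, again highest in library 2. Il5 had 67 UMIs in only 3 cells, 55 of them in 1 cell.

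The Th2 cytokines overlapped within cells. Of the 42 cells with Il13, 17 also held Il4, which is 40.5% of the cells with Il13 and 32.7% of the 52 cells with Il4, and all 3 cells with Il5 held Il13. Of the 42 cells with Il13, 40 held Gata3 and 18 held Il1rl1, which encodes the receptor of the alarmin IL-33. Il1rl1 itself was found in 39.5% (34.4 to 44.9%) of all cells, at 88.0, 142, 241 and 97.3 CPM, and Ccr4, a chemokine receptor of Th2 and regulatory cells, in 28.2%. Ptgdr2 had 0 UMIs in these cells and in all other T cells compared. Altogether 77 cells (21.8%, 17.6 to 26.4%) held a UMI of Il4, Il5 or Il13. That share was 13.8% (3.89 to 31.7%), 41.9% (27.0 to 57.9%), 13.3% (8.73 to 19.2%) and 30.4% (21.7 to 40.3%) in libraries 1 to 4, and after thinning to 1000 UMIs it was 10.3%, 20.9%, 2.81% and 3.92%. Library 2 was highest on both readings, whereas the high value of library 4 was not seen at equal depth.

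The DNA just upstream of these cytokine genes is shown because Il4, Il5 and Il13 lie in a cluster on mouse chromosome 11 and were detected in overlapping cells. The sequences are the 250 bases before the start of each gene, 5′ to 3′ on the strand of the gene, from RefSeq on GRCm38.p6 (for Il4 the more upstream of 2 listed starts). Capitals mark GATAA, 1 form of the site read by GATA factors, and GGAAA, the core read by NFAT factors. Each was marked on either strand (TTATC and TTTCC on the reverse).
Il13 (chr11:53634703-53634952, minus strand): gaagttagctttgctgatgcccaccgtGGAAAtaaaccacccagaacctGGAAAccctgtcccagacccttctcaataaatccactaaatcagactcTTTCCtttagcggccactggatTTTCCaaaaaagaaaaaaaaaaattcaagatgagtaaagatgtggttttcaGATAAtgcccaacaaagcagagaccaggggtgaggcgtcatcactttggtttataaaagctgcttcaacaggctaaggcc
Il4 (chr11:53618666-53618915, minus strand): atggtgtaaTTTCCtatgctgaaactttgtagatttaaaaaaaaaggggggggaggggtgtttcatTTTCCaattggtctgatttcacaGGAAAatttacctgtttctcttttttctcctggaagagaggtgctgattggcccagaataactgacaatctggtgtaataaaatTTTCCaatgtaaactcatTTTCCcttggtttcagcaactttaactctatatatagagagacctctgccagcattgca
Il5 (chr11:53720544-53720793, plus strand): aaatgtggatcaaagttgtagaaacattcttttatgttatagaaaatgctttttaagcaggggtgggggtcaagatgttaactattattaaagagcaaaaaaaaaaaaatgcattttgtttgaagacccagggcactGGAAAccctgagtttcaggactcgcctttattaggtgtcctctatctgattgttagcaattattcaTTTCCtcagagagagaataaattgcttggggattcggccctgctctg
Il13 held 1 GATAA and 4 GGAAA matches, Il4 held 0 and 5, and Il5 held 0 and 2. Of 32851 RefSeq promoter windows of the same length, 22.6% held GATAA and 55.6% held GGAAA on either strand. Other forms of these sites were not searched, so a count of 0 does not mean that a promoter lacks a site. A match is a description of these letters only, and binding was not measured.

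Th1 genes were sparse at the top of the programme. Tbx21 was found in 13 cells (3.67%, 1.97 to 6.20%), at 16.0, 0, 7.50 and 4.93 CPM. Ifng was found in 28 cells (7.91%, 5.32 to 11.2%), at 40.0, 4.23, 30.0 and 82.5 CPM in libraries 1 to 4, and in 17.6% of the cells of library 4 against 2.33 to 6.90% in the other libraries. Thinning to 1000 UMIs left library 4 highest for Ifng, at 9.80% against 0 to 1.12%. In CD8 T cells Ifng stood at 637 CPM in library 1, and the 11 CD8 T cells of library 4 held 84.7 CPM against 82.5 CPM in the Foxp3-negative CD4 T cells there. Of the 42 cells with Il13, 3 held Ifng, and none of the 52 cells with Il4 did. Other genes of the Th1 list that are not specific to Th1 were broad, such as Bhlhe40, a transcription factor of cytokine-producing T cells, in 75.1%, Cxcr6, a chemokine receptor of tissue T cells, in 54.8%, and Il18r1, a chain of the IL-18 receptor, in 53.7%.

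A gene of the Th17 list was found in 78.8% of the cells and 1 of the Tfh list in 83.3%, but the cytokines of both programmes were found in few. Il17a had 19 UMIs in 4 cells, Il17f 45 UMIs in 3 cells and Il22 55 UMIs in 5 cells. Rora, which Th2 and regulatory cells also use, was found in 72.9%. Bcl6 was found in 6.50% (4.16 to 9.59%), at 9.96 CPM against 24.8 CPM in neutrophils, and Cxcr5 and Il21 had 1 UMI each. Maf, which encodes the factor c-Maf, was found in 60.7%, Slamf6 and Sh2d1a, a receptor and adaptor of T cell help, in 41.5% and 32.2%, and Tmem176a and Tmem176b in 15.5% and 13.8%. Gata3 was seen with Bcl6 in 16 cells and with Tbx21 in 7, and Tbx21 with Bcl6 in 1.

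**Figure D3:**
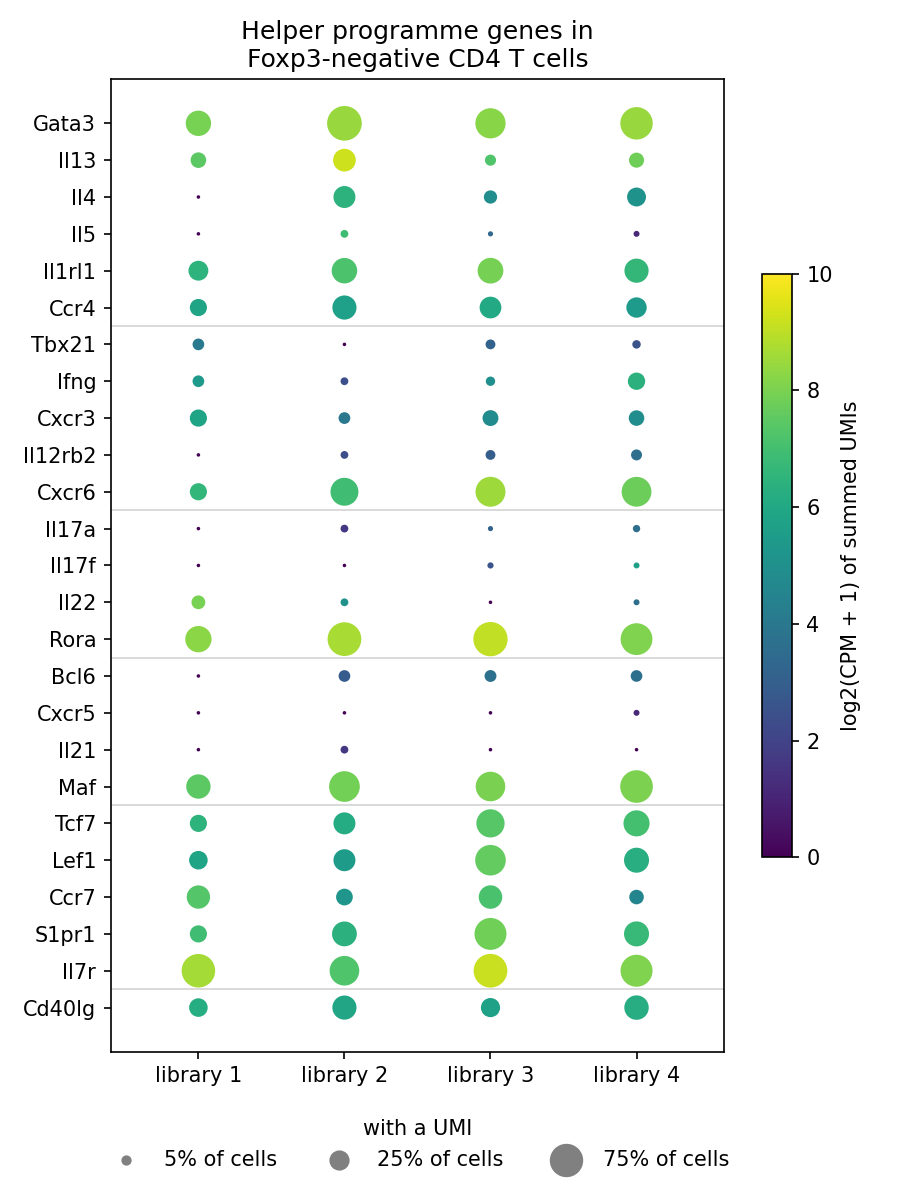
Genes of the helper programmes in the Foxp3-negative CD4 T cells of libraries 1 to 4. Dot size is the percentage of cells with a UMI and colour is log2(CPM + 1) of the summed UMIs, and lines separate Th2, Th1, Th17, Tfh, naive and memory genes and Cd40lg. Gata3, Rora, Maf and Il7r are large dots in all libraries, and Cxcr5 and Il21 are near 0.

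Of the 16 cytokine genes, 5 were found in at least 10% of the cells, and 94.4% of the cells held a UMI of at least 1 of them. Tnf was the broadest of the inducible cytokines, with 228 UMIs in 96 cells (27.1%), at 96.0, 46.6, 84.9 and 113 CPM, but neutrophils held 558 CPM of it. Il2, the T cell growth factor, had 54 UMIs in 20 cells (5.65%), and Csf2, which encodes GM-CSF, had 87 UMIs in 9 cells, 94.3% of them in the 5 highest cells. Of the Il13 UMIs, 69.4% lay in the 5 highest cells, and 1 cell held 133 UMIs. Tnfsf11, which encodes RANK ligand, was found in 26.0% at 90.0 CPM and Tnfsf8 in 30.8%. Ltb and Tgfb1 were found in 80.2% and 59.9%. The number of cells with a UMI thus ranged widely from gene to gene.

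**Figure D4:**
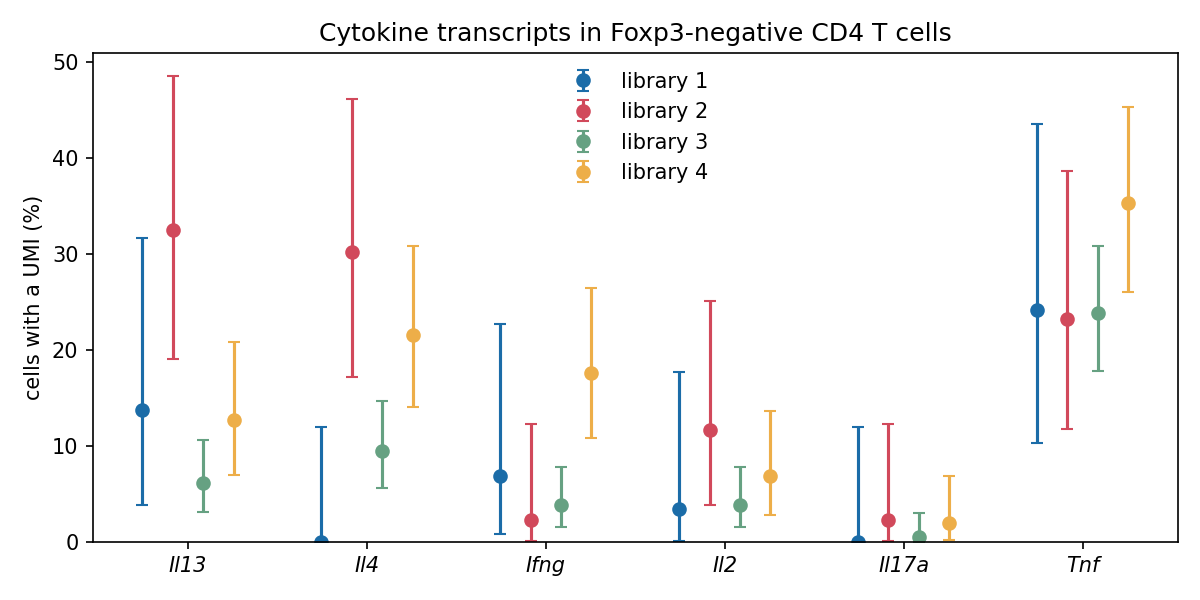
Percentage of Foxp3-negative CD4 T cells with a UMI of each cytokine, by library, with exact 95% intervals. Il13 and Il4 are highest in library 2 (32.6% and 30.2%) and Ifng in library 4 (17.6%), while Il17a is at most 2.33% in each library.

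The 10 naive and memory genes summed to 3720, 1198, 2787 and 1572 CPM in libraries 1 to 4, so that library 1 was highest, with 2448 CPM from Klf2, and the order differed between genes. Il7r, the IL-7 receptor of resting T cells, was found in 72.0% of the cells, at 400, 150, 566 and 264 CPM in libraries 1 to 4. Satb1, a chromatin organiser of T cells, was found in 80.5%, Lef1 in 48.6% and Tcf7 in 44.4%. Lef1 stood at 56.0, 44.5, 192 and 75.1 CPM and Tcf7 at 88.0, 69.9, 162 and 129 CPM, both highest in library 3, whereas Ccr7 (160, 36.0, 139 and 22.2 CPM) and Igfbp4 (216, 144, 94.1 and 33.3 CPM) were highest in library 1. S1pr1, the receptor by which T cells leave tissues, was found in 52.5%, and Ccr7, the receptor for entry into lymph nodes, in 26.0%. Klf2, which controls S1pr1, stood at 2448 CPM in library 1 against 231 to 475 CPM in the others.

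The 77 cells with Il4, Il5 or Il13 UMIs, a split chosen after the values were seen, were deeper than the 277 others (median 7264 against 4393 UMIs), so levels rather than shares are compared. They held less Il7r (156 against 527 CPM), Tcf7 (51.3 against 180), Lef1 (48.2 against 166), Il18r1 (35.9 against 249) and Cxcr3 (1.03 against 41.6). Lower levels were not confined to memory and Th1 genes. Cd28 (320 against 634 CPM) and Icos (355 against 743) were lower too. So was the T cell receptor list, such as Cd3e (398 against 640) and Trbc2 (788 against 1077), except Cd5, Cd6 and Thy1, which were higher. The cells with these cytokines held more Csf2 (78.9 against 6.12 CPM), Tnfsf11 (135 against 63.0), Stmn1 (387 against 188) and Gata3 (404 against 274). Tcf7, Lef1 and Cxcr3 were lower in the cytokine-bearing cells of each of libraries 2 to 4. In library 1 only 4 cells bore these cytokines, so that 3 absent UMIs amount to 150 CPM, and their 0 UMIs of these 3 genes cannot be placed against 105, 66.7 and 66.7 CPM. Gata3 stood at 359, 452 and 410 CPM against 342, 256 and 298 CPM in libraries 2 to 4, and Tnfsf11 at 112, 206 and 66.9 CPM against 105, 70.3 and 33.1 CPM, with little difference in library 2 for either. Csf2 was opposite in library 2 (9.37 against 59.2 CPM), and in the 4 cells of library 1 Il18r1 stood at 199 against 152 CPM and Il7r at 399 against 400.2 CPM. Stmn1 is given for the libraries together. Mki67, another cell cycle gene, stood at 275, 166 and 123 against 72.3, 79.0 and 227 CPM in libraries 2 to 4, so that library 4 was opposite. Cd74 stood at 522 against 147 CPM, but 449 of the 509 UMIs in the cells with these cytokines lay in 1 cell, without which they held 63.8 CPM. Other markers moved with the split as well. Genes of dendritic cells summed to 989 against 285 CPM, with H2-Aa at 288 against 65.5 CPM and Xcr1, Cd209a and Ccr9 at 0, and fibroblast genes to 3397 against 2616 CPM, with Dcn at 759 against 298 CPM. Lyz2 was found in 68.8% against 39.0% of these unequally deep cells, at 283 against 254 CPM, in a macrophage and monocyte list of 725 against 869 CPM. The part of depth, of doublets and of such transcripts in this split was not tested.

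Regulatory T cell genes other than Foxp3 were found in these cells to unequal degrees. Of 17 such genes, 16 had a UMI and 10 were found in at least 10% of the cells. Tnfrsf18 and Tnfrsf4, which encode GITR and OX40 and are also induced on activated helper cells, were found in 80.8% and 68.9%. Ctla4, an inhibitory receptor, was found in 46.0% (40.8 to 51.4%), at 456, 275, 156 and 129 CPM. Il2ra, the high-affinity chain of the IL-2 receptor, was found in 35.0% (30.1 to 40.3%) and Ikzf2, which encodes Helios, in 13.8% (10.4 to 17.9%). Both Il2ra and Ikzf2 were found in 23 cells (6.50%, 4.16 to 9.59%) against 76.4% (64.9 to 85.6%) of the 72 Foxp3-positive cells. Gpr83 had 0 UMIs. The 150 cells with either gene (42.4%) carried most of the Il13, which stood at 30.7 CPM in the 204 cells without them against 254 CPM in all. That level rests on few cells, since 69.4% of the Il13 UMIs lay in the 5 highest. By cells the contrast was smaller, with an Il13 UMI in 6.37% of the 204 against 11.9% of all, and depth was not matched. Gata3 stood at 323 CPM both in the 204 cells and in all.

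Of 10 activation genes, 5 were found in at least 50% of the cells, and of 9 inhibitory receptor genes none were. Cd69, an early activation and retention marker, was found in 73.4% (68.5 to 78.0%), at 952, 356, 506 and 697 CPM in libraries 1 to 4, and Icos in 91.2% at 552, 406, 749 and 494 CPM. The immediate early gene Fos ranged from 193 CPM in library 3 to 1760 in library 1, and Junb from 864 to 2384 CPM in the same libraries. A UMI of any inhibitory receptor gene was held by 60.5% of the cells, but only Ctla4 and Pdcd1 were found in at least 10% each. Pdcd1, which encodes PD-1, was found in 13.8% (10.4 to 17.9%), at 32.0, 40.2, 19.99 and 38.2 CPM in libraries 1 to 4, and Lag3, Havcr2 and Tigit in 5.08%, 3.67% and 1.41%. The immediate early list summed to 6271, 2920, 2563 and 3787 CPM, and the inhibitory list to 640, 417, 227 and 217 CPM. In CD8 T cells, of which libraries 2 to 4 held only 5, 9 and 11, Pdcd1 stood at 426, 101, 304 and 13.0 CPM and the inhibitory list at 986, 344, 638 and 104 CPM, so that the list was higher in CD8 T cells in libraries 1 and 3 and lower in libraries 2 and 4.

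Of 11 cytotoxic genes, 4 were found in at least 10% of the cells. Gzmb, which encodes granzyme B, was found in 81 cells (22.9%, 18.6 to 27.6%), at 104, 63.5, 163 and 541 CPM, and Nkg7, a granule protein, in 81 cells as well, at 64.0, 38.1, 92.4 and 193 CPM. Library 4 was highest for both. A single cell held 171 of the 678 Gzmb UMIs, and a single cell of the pool held 457 of the 535 Ccl5 UMIs. The level of Ccl5, a chemokine of cytotoxic T cells, was 33.3 CPM in place of 205 when the 29 cells with the highest 5% of doublet scores were left out. Prf1, which encodes perforin, was found in 4 cells (1.13%), at 1.53 CPM. The 11 cytotoxic genes summed to 688, 318, 991 and 1044 CPM in libraries 1 to 4, against 5280, 4084, 4737 and 1094 CPM in CD8 T cells, so that the sums were alike in library 4. In neutrophils they summed to 4571 CPM, where the chemokine Ccl4 alone made up 4491 CPM. Ccl4 was found in 53.7% of the Foxp3-negative CD4 T cells, at 206 CPM.

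Of 10 cell cycle genes, 1 (Pcna) was found in at least 50% of the cells. Mki67 and Top2a, markers of dividing cells, were found in 18.6% (14.7 to 23.1%) and 18.4% of the cells, with Mki67 at 16.0, 210, 99.1 and 181 CPM in libraries 1 to 4. Stmn1 led the list at 262 CPM, and Pcna, a DNA clamp, was found in 51.7%. Neutrophils, which do not divide, held 93.0 CPM of Mki67 against 141 CPM here. Interferon-stimulated genes were lowest in library 2. Their list summed to 3936, 1872, 2953 and 3925 CPM, with Ifi27l2a at 2328, 1452, 1983 and 2632 CPM, Isg15 at 568, 193, 250 and 441 CPM and Irf7 at 144, 12.7, 102 and 158 CPM. Homing receptors were led over the 4 libraries together by Ccr2 (54.8% of cells, 274 CPM) and Cxcr6 (264 CPM), followed by Selplg, which encodes the adhesion molecule PSGL-1 (72.0%), and Itgb7 of the integrin beta chains (63.8%).

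The contrast with Foxp3-positive CD4 T cells, the regulatory cells of the same gate, asked what sets the Foxp3-negative cells apart beyond Foxp3. For each gene with at least 20 UMIs over both populations, the log2 ratio of CPM plus 10 was taken within a library, and a gene was called where the mean ratio was at least 1 in size with the same sign in each library used. Only library 3 held at least 20 cells of both (180 and 37 cells), so the values below describe that library, with no replicate check and no test. Of 7541 genes, 596 (7.9%) were called higher and 330 (4.38%) lower in the Foxp3-negative cells. Both counts were much lower with at least 50 UMIs or with 50 CPM added, as given at the end. Regulatory genes were lower: 8 of 12 measured were called lower, 1 of them measured only through the Foxp3-positive cells, and 0 higher, with a median log2 ratio of -2.20 against 0.01 over all genes. Ikzf2 stood at 34.1 against 1266 CPM, Il2ra at 125 against 1326, Ctla4 at 156 against 1081 and Tnfrsf9, which encodes 4-1BB, at 248 against 1561 CPM.

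Of the naive and memory genes called higher, 2 had enough UMIs only through the Foxp3-negative cells, so no count over that list is given. Tcf7 stood at 162 CPM against 3.78 CPM (1 UMI), Satb1 at 871 against 208 and Lef1 at 192 against 68.0 CPM. Of the cytokines, Il13 stood at 152 against 3.78 CPM (1 UMI), Ifng had 36 UMIs against 1, and Il2, Il4 and Csf2 had 38, 34 and 21 against 0. These 5 genes had enough UMIs to be measured only through the Foxp3-negative cells, so no count over the cytokines is given. Tnfsf8 stood at 173 CPM against 0 UMIs, at least 15.3-fold higher when the absent count is set to 3. Cd40lg stood at 51.6 against 3.78 CPM. The largest log2 ratios upwards belonged to Tnfsf8, Plac8, Tcf7, Il13, Ccnd1, Oaf, Nkg7, Hbb-bs, Ramp3, Ccl5, Gm37248 and Plpp3, of which Nkg7 and Oaf also had 0 UMIs in the Foxp3-positive cells. Ccl5 is in this list through the cell with 457 UMIs. Among those downwards were Ikzf2, Gzma, Igkc, Klrg1, Itgb8, Il2ra, Gm28112, Hopx, Trf, Tnfrsf8 and Pf4. Gzma stood at 35.8 against 809 CPM in library 3, on 43 and 214 UMIs. After thinning, over all libraries, a Gzma UMI was found in 2.56% of the Foxp3-negative cells against 1.39% of the Foxp3-positive cells. The rank of Gzma thus rests on few Foxp3-positive cells.

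Some of the genes with the largest ratios mark other cells. Igkc is an immunoglobulin gene (3.33 against 200 CPM), Pf4 is a platelet and myeloid gene and Hbb-bs is a globin gene. All 5 fibroblast genes were called higher, against 7.9% of all genes, with a median log2 ratio of 2.12. The neutrophil genes summed to 1279 against 2827 CPM. The part of these marker genes in the remaining calls was not tested. In cell cycle genes 5 of 10 were called lower and 0 higher, against 4.38% and 7.9% of all genes. Mki67 stood at 99.1 against 446 CPM and Top2a at 122 against 416 CPM in library 3.

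The same ratios were taken over all 4 libraries after lowering the limit to 8 cells, an alternative added after seeing the data. Of 9629 genes, 281 were then called higher and 133 lower, and 148 of these 281 and 70 of these 133 were among the genes called in library 3. Genes with few or no UMIs in the Foxp3-positive cells are given as levels, because their ratio is set by the added 10 CPM. In these cells 3 absent UMIs amount to 69.9, 10.4, 11.3 and 58.4 CPM in libraries 1 to 4. Il13 stood at 176, 599, 152 and 218 CPM against 0, 0, 3.78 (1 UMI) and 0 CPM, which counted as UMIs is at least 57.5-fold higher in library 2. Tnfsf8 stood at 264, 358, 173 and 93.6 CPM against 23.3 (1 UMI), 0, 0 and 0 CPM, at least 34.3-fold, 15.3-fold and 1.60-fold higher in libraries 2 to 4. These bounds count UMIs and not cells, and 69.4% of the Il13 UMIs lay in the 5 highest cells. With 11 and 8 Foxp3-positive cells, the 0 UMIs of Il13 in libraries 1 and 4 could not be placed. In library 2 both genes were above what the absent counts allow by a wide margin, and Tnfsf8 in library 4 by a narrow one. Tcf7 stood at 88.0, 69.9, 162 and 129 CPM against 0, 3.48, 3.78 and 0 CPM, with at most 1 UMI in a library, and Cd40lg at 72.0, 57.2, 51.6 and 73.9 CPM against 0, 0, 3.78 and 19.5 CPM. In library 1 neither could be placed with any precision, as the bounds there were 1.26-fold for Tcf7 and 1.03-fold for Cd40lg. Itgb1, an integrin chain, was higher in each library, at 599.9, 315, 318 and 442 CPM against 117, 48.7, 56.7 and 77.8 CPM. Lef1 and Satb1, called in library 3, were not called over 4 libraries, since Lef1 had log2 ratios of -0.28 and -0.55 in libraries 1 and 2 and Satb1 of 0.64, 0.14 and 0.58 in libraries 1, 2 and 4. Ikzf2 (-1.78, -4.15, -4.85 and -5.10) and Klrg1 were lower in each, as were Il2ra, at 128, 258, 125 and 131 CPM against 303, 1161, 1326 and 1129 CPM, and Ctla4. Gzmb was lower as well, at 104, 63.5, 163 and 541 CPM against 839, 473, 469 and 3328 CPM. Of the cell cycle genes, only Mki67 was called lower over 4 libraries. Their list summed to 1104, 1725, 1075 and 1270 CPM against 326, 4491, 2369 and 934 CPM in the Foxp3-positive cells, so that it was higher in the Foxp3-negative cells of libraries 1 and 4, where 11 and 8 Foxp3-positive cells were compared. Of the fibroblast genes, Col3a1 and Col1a2 were called higher over 4 libraries.

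**Figure D5:**
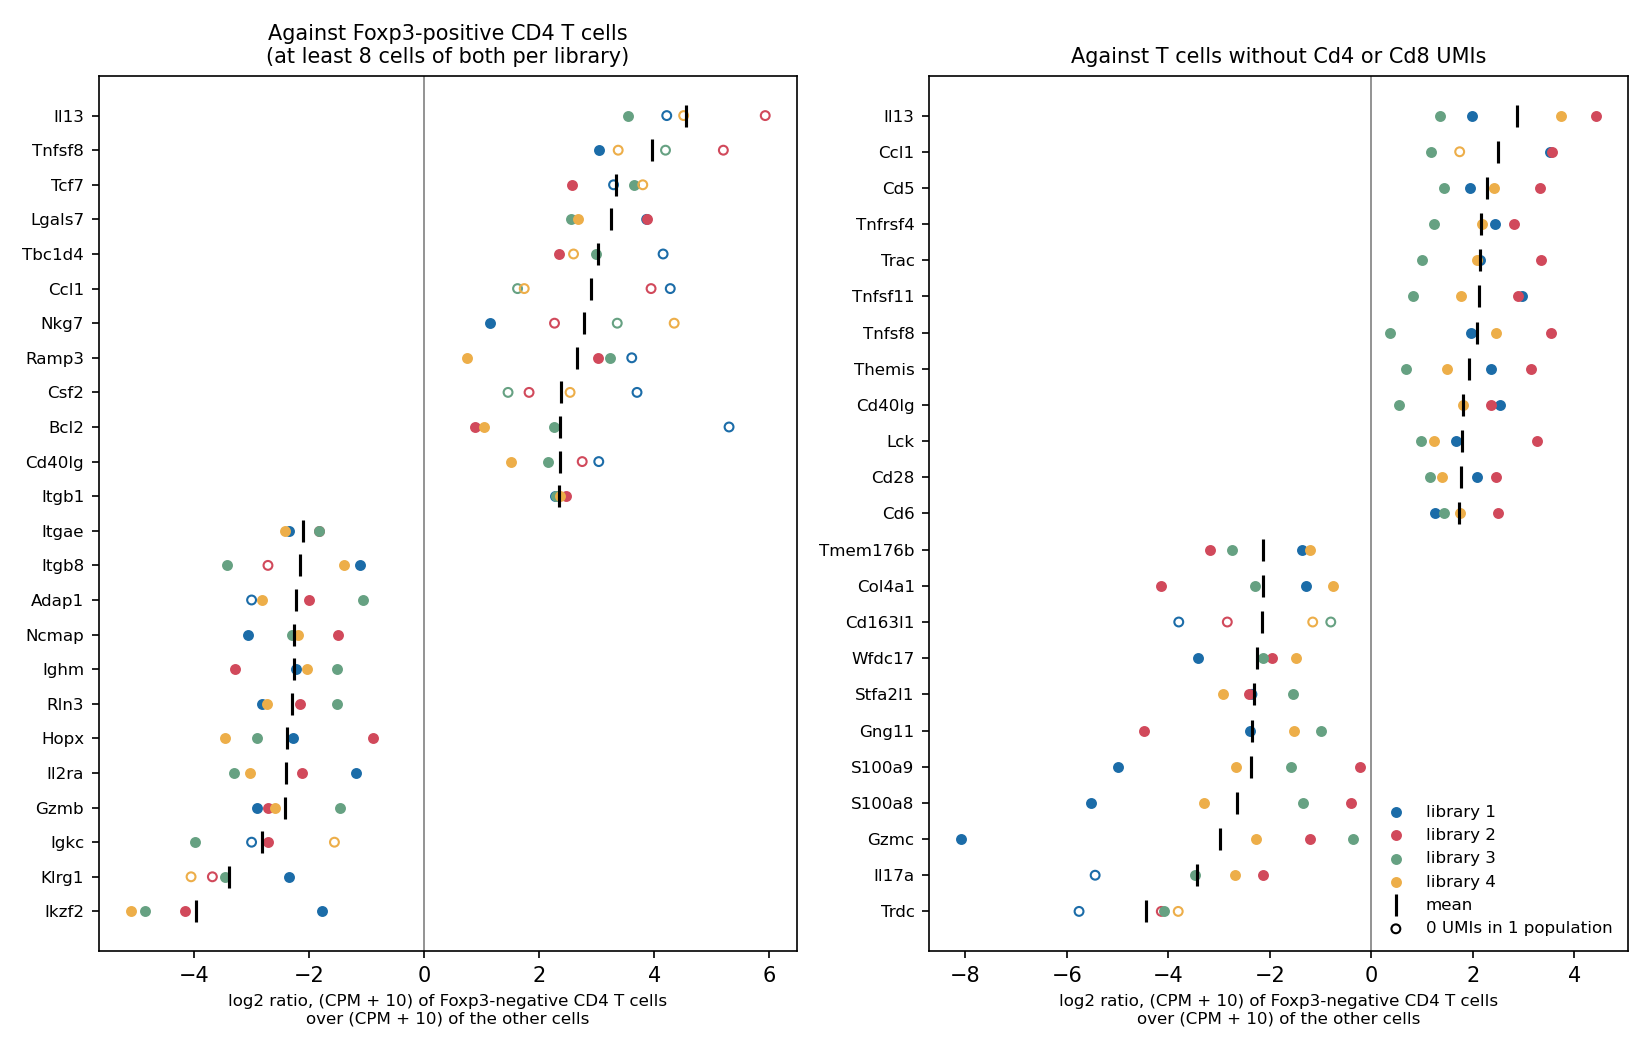
Log2 ratio of CPM plus 10 of Foxp3-negative CD4 T cells over Foxp3-positive CD4 T cells (left, libraries with at least 8 cells of both) and over T cells without Cd4 or Cd8 UMIs (right, libraries with at least 20 cells of both), for genes among the 12 called with the largest mean ratio in each direction. Points are libraries and the black tick is their mean. Open points have 0 UMIs in 1 of the populations, so that the added 10 CPM sets their place, as for Il13 in libraries 1, 2 and 4 on the left. The filled points of Ikzf2 lie between -1.78 and -5.10.

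The contrast with T cells that held neither Cd4 nor Cd8 UMIs was the only one with at least 20 cells of both populations in all 4 libraries. Those 354 cells (106, 27, 155 and 66) had a median of 3488.5 UMIs, and since 157 of the Foxp3-negative CD4 T cells held a single Cd4 UMI, CD4 T cells with a missed Cd4 transcript can be among them. Of 11092 genes, 84 (0.757%) were called higher and 256 (2.31%) lower in the Foxp3-negative CD4 T cells. With 50 CPM added both counts were much lower, as given at the end. Of the 16 T cell receptor genes 12 were called higher and 0 lower, with a median log2 ratio of 1.15 against -0.07 over all genes. Trac stood at a mean of 413 against 102 CPM and Lck, the kinase that starts receptor signalling, at 303 against 93.4 CPM. Of the 10 costimulatory genes 8 were called higher and 0 lower (median 1.68), among them Tnfrsf4 at 493 against 104 CPM, Cd28 at 495 against 154 and Tnfsf8 at 222 against 55.6 CPM.

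Of 7 Th2 genes measured 3 (Il13, Gata3 and Ccr4) were called higher and 0 lower, against 0.757% and 2.31% of all genes. Il4 (36.3 against 4.78 CPM), Il5, Il1rl1 and Areg (93.1 against 160 CPM) were not called. Il13 stood at a mean of 286 against 28.9 CPM, with a log2 ratio of 1.99, 4.42, 1.36 and 3.74 in libraries 1 to 4, Gata3 at 313 against 110 CPM, Ccr4 at 53.0 against 17.7 CPM and Cd40lg at 63.7 against 13.3 CPM. Trdc, the delta chain constant region, stood at 0.416 against 254 CPM, on 2 and 669 UMIs. The called gamma delta and innate-like genes had enough UMIs to be measured only through the T cells without Cd4 or Cd8 UMIs, so no count over them is given. Il17a stood at 5.17 against 194 CPM. Of 9 Th17 genes measured 4 were called lower, against 2.31% of all genes, 1 of them measured only through the other cells. The 12 genes with the largest ratio upwards were Il13, Ccl1, Cd5, Tnfrsf4, Trac, Tnfsf11, Tnfsf8, Themis, Cd40lg, Lck, Cd28 and Cd6. Among those downwards were Trdc, Il17a, Gzmc, S100a8, S100a9, Gng11, Stfa2l1, Wfdc17, Cd163l1, Col4a1 and Tmem176b. Some ranks rest mainly on library 1. The log2 ratio was -8.08, -1.20, -0.35 and -2.27 in libraries 1 to 4 for Gzmc. It was -5.51, -0.40, -1.34 and -3.30 for S100a8, and -4.99, -0.23, -1.57 and -2.67 for S100a9. Cd163l1 had 0 UMIs in the Foxp3-negative CD4 T cells, against 129, 61.5, 7.40 and 12.3 CPM in libraries 1 to 4. In the Foxp3-negative cells 3 absent UMIs amount to 24.0, 6.35, 2.50 and 3.70 CPM there.

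S100a8, S100a9, Stfa2l1 and Wfdc17 are myeloid genes and Col4a1 is a basement membrane gene. In the T cells without Cd4 or Cd8 UMIs, 18.6% of the cells held over 1% UMIs of other cells, against 4.52% of the Foxp3-negative CD4 T cells. Without such cells in either population 53 genes were called higher and 109 lower, 41 and 58 of them among the calls above, and without library 3 the counts were 160 and 464.

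CD8 T cells could be compared in library 1 only (29 against 280 cells), where the Foxp3-negative CD4 T cells held 125012 UMIs in all. Of 8679 genes, 346 (3.99%) were called higher and 1103 (12.7%) lower in them. Since 3 absent UMIs amount to 24.0 CPM here, many low genes cannot be placed, and the number of calls in this comparison is not a number of changed genes, since low genes can be called through counting error alone. With at least 50 UMIs the counts were 202 and 580, and with 50 CPM added in place of 10 they were 69 and 74. Of the cytotoxic genes called lower, 9 of 10 had enough UMIs only through the CD8 T cells, so their number is not read. Nkg7 stood at 64.0 against 1606 CPM, Ifng at 40.0 against 637 and Pdcd1 at 32.0 against 426 CPM, and Prf1 had 0 UMIs, at least 9.38-fold lower. Of 8 naive and memory genes measured 6 were called higher and 1 lower, 1 of each measured only through the population where it was high, with S1pr1 at 120 against 3.44 CPM and Il7r at 400 against 138 CPM. The fibroblast genes summed to 264 against 587 CPM and the neutrophil genes to 344 against 874 CPM in this library. Of 5 tumour or epithelial genes Epcam alone was called, higher at 599.9 against 265 CPM. Of the macrophage and monocyte genes C1qa, C1qc and Fcgr3 were called lower, each measured only through the CD8 T cells. Ccr2 of that list, which T cells also use, was called higher. The part of these marker genes in the other calls was not tested.

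Of 8 costimulatory genes measured 7 were called higher, against 3.99% of all genes, with Icos at 552 against 123 CPM. Cd27 was called lower (64.0 against 141 CPM, on 8 and 328 UMIs) but was measured only through the CD8 T cells. Of 9 regulatory genes 5 were called higher and 0 lower, against 3.99% and 12.7% of all genes. Of these 5, Tnfrsf18, Tnfrsf4 and Tnfrsf9 are also among the costimulatory genes just counted, so the 2 counts are not separate. The others were Il2ra, on 16 UMIs (128 against 39.6 CPM), and Nrp1, on 8 UMIs (64.0 against 25.4 CPM). Low genes can be called here through counting error alone. Ikzf2, Ikzf4, Ctla4 and Capg were not called. Il13 stood at 176 against 0.860 CPM, on 22 and 2 UMIs. The largest ratios upwards belonged to Il22, Il13, Izumo1r, Penk, Tbc1d4, S1pr1, Krt83, Tnfrsf4, Ramp3, Slfn1, Maf and Slamf6. The 31 UMIs of Il22 in library 1 came from 3 cells, so its rank rests on them. Those downwards were Gzmf, Xcl1, Prf1, Nkg7, Klrc1, Plac8, Gzma, Ccl4, Tcrg-C2, Klrd1, Ifng and Klrc2. Of these, Gzmf, Xcl1, Prf1, Klrc1, Plac8, Tcrg-C2 and Klrc2 had 0 UMIs in the Foxp3-negative CD4 T cells of library 1. In library 3 those cells held 840 Plac8 UMIs (700 CPM). The place of Plac8 here thus describes library 1 only.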

How the data were processed

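Cells of 4 tumour samples, described by the study as CD45+, were profiled with 10x droplet sequencing. The authors deposited 1 matrix of raw UMI counts per gene and barcode, not normalized, over 55450 genes and 33064 barcodes. The file header names Cell Ranger 6.1.2, whereas the submitters' processing notes name Cell Ranger 2.1.1 and mm10. With at least 300 genes and at most 15% of UMIs from mitochondrial genes, 32133 barcodes of all 4 libraries were kept here. The 15603 cells the study states are those of its 2 treatment groups, so the denominators differ. The 4 libraries held 108646352, 81369540, 69255999 and 96493208 UMIs. No source used here ties a barcode suffix to a sample, so the matrix counts as 1 sample without replicates, no test was run, and intervals (95%, exact) cover counting error only.

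UMIs were summed over the cells of a library and scaled to CPM. Populations were compared within libraries holding at least 20 cells of both, by the log2 ratio of CPM plus 10 for genes with at least 20 UMIs. A gene was called at a mean ratio of at least 1 in size with the same sign in every library used. Foxp3-positive CD4 T cells met the same rule with a Foxp3 UMI, and neutrophils held at least 20 UMIs of S100a8 plus S100a9, at least 1 of Csf3r and none of Cd3d or Cd3g. Named genes were the 12 called genes with the largest ratio in each direction and genes of the fixed lists. Shares were compared between populations of different depth after thinning each cell to 1000 UMIs, which left out 2 Foxp3-negative CD4 T cells, 2 CD8 T cells and 10 T cells without Cd4 or Cd8 UMIs. Scrublet in scanpy 1.11.5 scored doublets, but its default mark fell on 3.57%, 0.0232%, 0.0442% and 0.0337% of the libraries' cells and was not used, so that doublets stayed in and the highest 5% of scores were removed as an alternative. The calculation, in Python 3.11.15 with numpy 2.4.6, scipy 1.17.1 and pandas 2.3.3, was tested on simulated data, in which the rule also called unchanged genes, a sizeable share of them in the comparison with CD8 T cells, so counts of calls there are not counts of changed genes. Members and gene lists were chosen with earlier results of these data known. Some genes of these lists are not reported here.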

Additional observations from a re-analysis of the deposited data

How the results depend on the processing

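The share of kept cells that were Foxp3-negative CD4 T cells was 0.613% with at least 2 Cd4 UMIs and 0.686 to 1.34% with each library left out, lowest without library 3. The Foxp3-negative share of CD4 T cells was 91.7% after thinning before the rule. The share with a Cd40lg UMI was 34.0% with at least 2 Cd4 UMIs, 5.40% after thinning, 10.5% when 2 UMIs were asked for, 23.5% without cells holding Il2ra or Ikzf2, and 24.6 to 35.1% with each library left out, highest without library 3.

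The numbers of called genes depended on the constant added to CPM. With 1 CPM, 934 genes were higher and 537 lower against Foxp3-positive cells, 703 and 1741 against CD8 T cells, and 269 and 858 against T cells without Cd4 or Cd8 UMIs. With 50 CPM the counts were 120 and 100, 69 and 74, and 26 and 38. With at least 50 UMIs they were 295 and 176 against Foxp3-positive cells and 202 and 580 against CD8 T cells. With counts pooled over libraries, 398 genes were lower against CD8 T cells and 398 against T cells without Cd4 or Cd8 UMIs. Without cells holding Il2ra or Ikzf2, 397 genes were higher against Foxp3-positive cells and 394 lower against T cells without Cd4 or Cd8 UMIs.

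Some alternatives were chosen after seeing the data. With at least 8 cells of both populations, 281 genes were higher and 133 lower against Foxp3-positive cells. Against T cells without Cd4 or Cd8 UMIs, 141 were higher and 447 lower with the highest doublet scores removed, and 53 and 109 with cells over 1% other-cell UMIs removed. Leaving out each library gave 60 to 160 higher and 260 to 464 lower, both most without library 3. The cause of these differences was not tested. Of the shares, levels and counts that answer a comparison, 64 alternative values stayed near the reported one and 38 moved, and for single genes 80 stayed and 32 moved, with none reversed, where near means inside the 95% interval of a reported share or within 1.5 times a reported count. The comparison with Foxp3-positive cells was not run without library 3, nor that with CD8 T cells without library 1 or without cells holding Il2ra or Ikzf2, because too few cells remained. The labels' replicate numbers could not be tied to libraries, and the results come from no test. The ratios between populations are paired by library. A test over these pairs was not run, although T cells without Cd4 or Cd8 UMIs could be compared in all 4 libraries. Depth limits library 1 most, where 1 UMI was 8.00 CPM.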
